A study of Mus musculus with 6 samples.

Results

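Mast cell genes were examined in the prostates of mice that carried testosterone and oestradiol pellets and of control mice. The 8 genes Mcpt4, Cma1, Cpa3, Tpsb2, Kit, Fcer1a, Ms4a2 and Hdc were taken from the deposited gene table by their symbols, as 8 of its 34745 genes. All 6 mice were male C57BL/6 animals, young adults at the start. In the T + E2 group, 3 mice had 1 slow-release pellet of testosterone with oestradiol under the skin at a time for 12 weeks, renewed each month. In the CON group, 3 mice had a skin incision that was closed without a pellet, so no group received either hormone alone. The prostate was sequenced as bulk tissue.

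Mast cells are long-lived immune cells that settle in connective tissue, around vessels and nerves. Their growth and survival depend on the receptor tyrosine kinase Kit, and the high affinity IgE receptor on their surface triggers the release of granules. The granules hold histamine and proteases bound to the proteoglycan serglycin. In mice, connective tissue mast cells typically carry the chymases encoded by Mcpt4 and Cma1, the tryptase encoded by Tpsb2 and carboxypeptidase A3 encoded by Cpa3. In bulk tissue, fewer mast cells and less of these RNAs in each mast cell cannot be told apart.

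Reads counted on genes numbered 14816146 to 16555549 per mouse. Seminal vesicle genes stood apart in replicate 2 of both groups, with 1.02% of counts in CON replicate 2 and 0.0596% in T + E2 replicate 2, against at most 0.000405% in the other 4 mice. Fat markers were also highest in CON replicate 2, at 331.6 CPM (a count scaled to the depth and composition of its library) against 42.9 to 93.9 CPM elsewhere. Defining prostate genes such as Pbsn and Tgm4 were abundant in all 6.

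Both chymase genes and Kit were lower in the T + E2 group, and all 3 T + E2 values of each lay below all 3 CON values. Such a lower T + E2 group without overlap was found for 20.7% of all tested genes. Mcpt4 stood 2.78-fold lower, Kit 1.99-fold lower and Cma1 1.73-fold lower (CON over T + E2, 3 mice in each group). Cpa3 and Tpsb2 had lower means in the T + E2 group, but their groups overlapped and they did not pass the test. Hdc showed no detectable difference, and Fcer1a and Ms4a2 had too few counts to be tested. The genes with an adjusted p under 0.05 were thus 3 of the 8, all lower, where 9.25% of the 15580 tested genes were called lower by that rule. Of the 8 genes, Mcpt4 was the only one that also had an absolute log2 fold change over 1, the definition of a differentially expressed gene (DEG) used here, and 3.38% of tested genes were DEGs with lower expression. The median log2 fold change of the 6 members that could be tested was -0.68, against -0.002 for all tested genes, which describes these 6 and not all 8. Without replicate 2 of both groups, an alternative added after the values were seen, the log2 fold change was -1.85 for Mcpt4, -1.02 for Kit and -0.82 for Cma1, and Mcpt4 alone passed an adjusted p of 0.05 (0.0288 from edgeR, against 0.065 and 0.202).

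The stretches of DNA just upstream of the granule protease genes are shown because these genes are read together as the signature of the cell. They come from the RefSeq promoter table on build GRCm38.p6, in which 7 of the 8 genes had an entry. Tpsb2 had none. Each is written 5′ to 3′ on the strand of the gene and ends before the first annotated exon. Capitals mark GATA-type matches (AGATAA or AGATAG, and likewise TGATAA or TGATAG, on either strand) and the letters TATAAA on the strand of the gene. The Mcpt4 sequence is chr14:56062314-56062560 (minus strand), that of Cma1 chr14:55944676-55944925 (minus strand) and that of Cpa3 chr3:20242182-20242431 (minus strand).
Mcpt4: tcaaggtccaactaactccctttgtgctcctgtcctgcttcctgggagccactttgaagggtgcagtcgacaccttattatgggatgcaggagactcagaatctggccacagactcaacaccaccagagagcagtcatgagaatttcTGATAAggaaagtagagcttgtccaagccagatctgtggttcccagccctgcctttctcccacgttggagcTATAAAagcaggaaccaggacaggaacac
Cma1: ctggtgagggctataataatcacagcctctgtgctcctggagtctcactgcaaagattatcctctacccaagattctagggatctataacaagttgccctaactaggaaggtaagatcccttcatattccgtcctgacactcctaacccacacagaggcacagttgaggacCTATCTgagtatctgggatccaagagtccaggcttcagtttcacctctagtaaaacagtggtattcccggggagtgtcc
Cpa3: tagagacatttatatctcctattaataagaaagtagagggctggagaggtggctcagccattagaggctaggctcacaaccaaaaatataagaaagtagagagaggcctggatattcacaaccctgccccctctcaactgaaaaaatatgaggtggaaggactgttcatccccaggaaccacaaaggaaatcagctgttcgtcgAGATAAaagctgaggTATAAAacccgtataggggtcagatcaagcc

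Positions are counted back from the RefSeq start of the gene, and the printed Mcpt4 sequence stops 3 bases short of it, where GENCODE places exon bases. The GATA-type match began at base -103 in Mcpt4, at -79 in Cma1 and at -46 in Cpa3. The letters TATAAA began at -32 in Mcpt4 and at -31 in Cpa3, and the window of Cma1 held none. Over all 32817 promoter windows of 250 bases in the same table, 26.6% held a GATA-type match and 7.6% held TATAAA. The windows of Fcer1a, Ms4a2 and Hdc also held a GATA-type match, that of Fcer1a held TATAAA, and that of Kit held neither. The E-box letters CACGTG or CATGTG, on either strand, occurred in the window of Fcer1a alone among the 7, and in 17.6% of all windows. These are matches of letters, and binding was not measured.

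Mcpt4 encodes mouse mast cell protease 4, a chymase of connective tissue mast cells (chromosome 14 of GRCm38, 56059744 to 56062310). Its level was 10.5, 9.66 and 7.04 CPM in CON replicates 1, 2 and 3. It was 2.98, 4.87 and 1.87 CPM in T + E2 replicates 1, 2 and 3. The lowest CON mouse stood above the highest T + E2 mouse. The means were 9.05 ± 1.79 and 3.24 ± 1.52 CPM (SD, n = 3 per group). On the log2 scale the fold change was -1.47 with a standard error of 0.33, and the quasi-likelihood test of edgeR gave an adjusted p of 0.0191 (Benjamini-Hochberg over all tested genes). Without CON replicate 1 the log2 fold change was -1.36 (edgeR adjusted p = 0.0514), and without T + E2 replicate 1 it was -1.41 (edgeR adjusted p = 0.0573), so the call was lost just past the threshold in these smaller fits while the size of the difference was similar.

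Cma1 encodes mast cell chymase 1 and lies in the same protease cluster (chromosome 14, 55941453 to 55944661). The CON mice had 6.75, 5.52 and 4.4 CPM and the T + E2 mice 2.7, 3.29 and 3.6 CPM. The groups did not overlap, although CON replicate 3 and T + E2 replicate 3 were close. Mean levels were 5.56 ± 1.18 and 3.2 ± 0.46 CPM (SD, n = 3 per group), and the log2 fold change was -0.80 ± 0.23 (± standard error, edgeR adjusted p = 0.0471). This value lay near the threshold. It was 0.0601 with DESeq2 and 0.0555 with no filter on low counts, and it was over 0.05 in 5 of the 6 fits that left out 1 mouse (edgeR adjusted p from 0.0466 to 0.13).

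Cpa3 encodes carboxypeptidase A3, which trims peptides after the chymases have cut them (chromosome 3, 20215620 to 20242181). It was counted at 6.62, 4.93 and 4.02 CPM in CON mice, against 2.9, 4.93 and 2.94 CPM in T + E2 mice. T + E2 replicate 2 stood level with CON replicate 2, and the other two T + E2 mice lay below every CON mouse. The means of 5.19 ± 1.32 and 3.59 ± 1.16 CPM (SD, n = 3 per group) differed by -0.53 ± 0.29 on the log2 scale (± standard error), and the edgeR adjusted p was 0.24.

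Tpsb2 encodes tryptase beta 2 (chromosome 17, 25366550 to 25368094). The CON mice had 10.3, 7.62 and 6.29 CPM, and the T + E2 mice had 3.81, 7.43 and 5.07 CPM. As for Cpa3, T + E2 replicate 2 lay within the CON range. The means were 8.06 ± 2.02 and 5.43 ± 1.84 CPM (SD, n = 3 per group), and the log2 fold change was -0.56 ± 0.28 (± standard error, edgeR adjusted p = 0.203). Without T + E2 replicate 2 the log2 fold change was -0.86 for Tpsb2 and -0.83 for Cpa3, and the edgeR adjusted p was 0.0939 and 0.109.

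**Figure D1:**
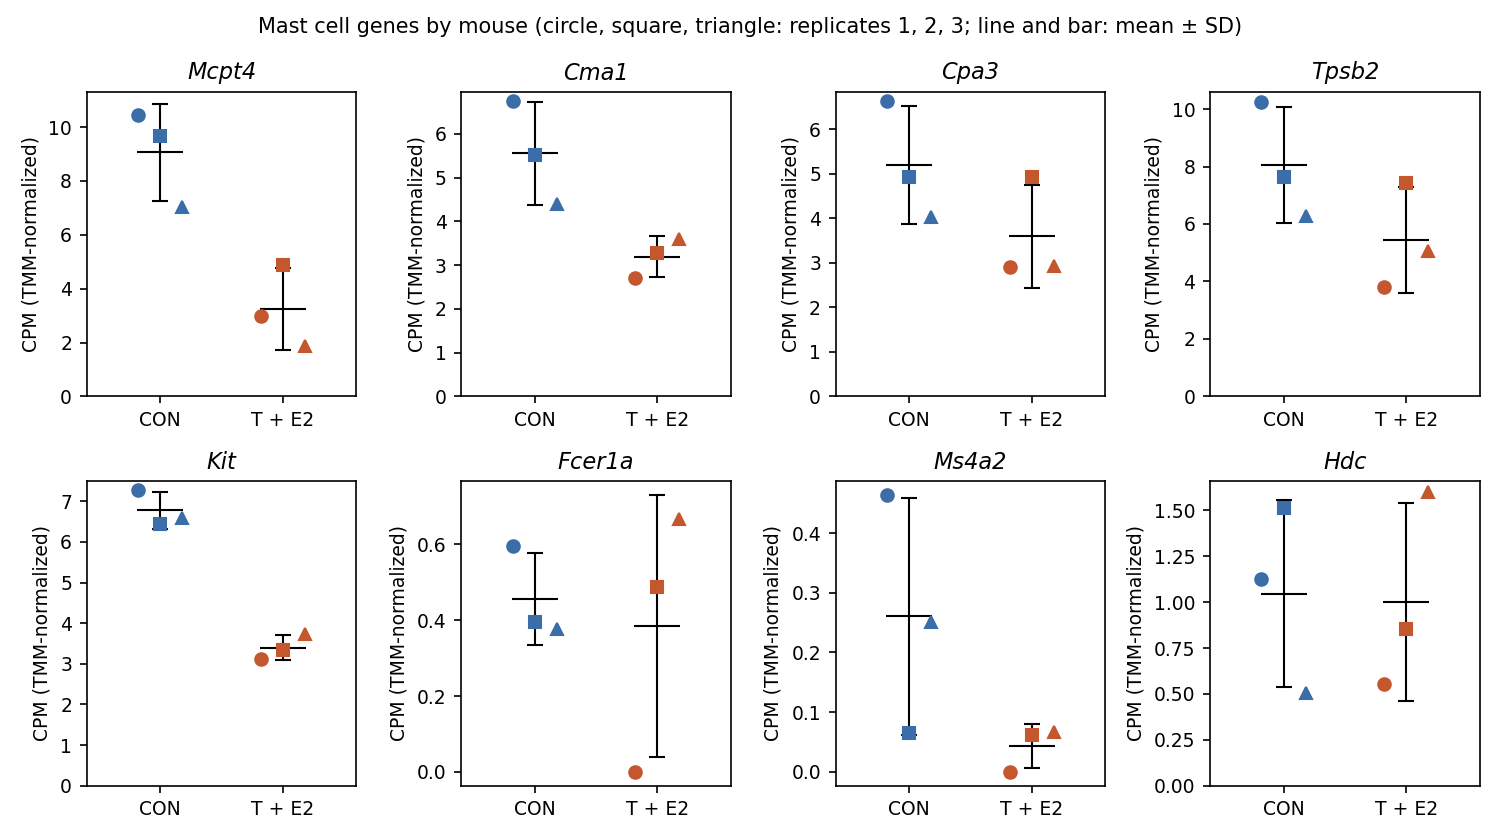
Level of each of the 8 mast cell genes in CPM in the 3 CON mice (blue) and the 3 T + E2 mice (orange), with the mean and SD of each group. Mcpt4, Cma1 and Kit show no overlap between the groups, Cpa3 and Tpsb2 overlap through T + E2 replicate 2, and Fcer1a and Ms4a2 lie below 1 CPM in every mouse.

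Kit encodes the receptor of stem cell factor, which mast cells need to survive (chromosome 5, 75574916 to 75656722). Its levels were 7.29, 6.44 and 6.6 CPM in CON mice, against 3.11, 3.35 and 3.74 CPM in T + E2 mice. The 2 groups stood far apart relative to their spread, with means of 6.77 ± 0.448 and 3.4 ± 0.315 CPM (SD, n = 3 per group). On the log2 scale the difference of -0.99 ± 0.18 (± standard error, edgeR adjusted p = 0.00699) fell just short of the fold threshold of a DEG. With limma on log2(FPKM + 1) the difference was -0.28 (limma adjusted p = 0.0221), on a scale where the added 1 exceeds every FPKM value of Kit. The edgeR adjusted p stayed between 0.0164 and 0.0273 with any 1 mouse left out. With replicate 2 of both groups left out it was 0.065. Kit is also found on melanocytes and on interstitial cells of Cajal. Of 5 melanocyte markers, Tyr, Tyrp1, Dct and Mlana had at most 2 counts in any mouse. The remaining marker, Pmel, had 50, 61 and 58 counts in CON mice, against 60, 44 and 57 in T + E2 mice (edgeR adjusted p = 0.907). Of 4 markers of interstitial cells, Ano1 was higher in the T + E2 group, by 0.87 on the log2 scale (edgeR adjusted p = 0.000638), and none was called lower. Ano1 had means of 193.5 CPM in CON mice and 352.9 CPM in T + E2 mice, far above those of Kit. Etv1, Prkcq and Gpr20 were not called, and their CON means were 5.5, 2.7 and 0.35 CPM. The cells that held the Kit or Ano1 transcripts were not identified.

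Fcer1a encodes the chain of the high affinity IgE receptor that binds IgE (chromosome 1, 173221284 to 173227214). It had 9, 6 and 6 counts in CON mice, against 0, 8 and 10 in T + E2 mice. The T + E2 mice thus held both the lowest and the highest value. Summed over the groups these were 21 and 18 counts, a ratio of depth-scaled levels of 0.864 (exact 95% interval 0.434 to 1.7, counting error only). A halving of Fcer1a could therefore not be told from no difference at this depth.

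Ms4a2 encodes the beta chain of the same receptor, which amplifies its signal (chromosome 19, 11615523 to 11623719). There were 7, 1 and 4 counts in CON mice, against 0, 1 and 1 in T + E2 mice. The groups met at 1 count. The totals of 12 and 2 counts gave a ratio of T + E2 over CON of 0.168 (exact 95% interval 0.0183 to 0.755, counting error only). That interval takes no account of the spread between mice, and 7 of the 12 CON counts came from CON replicate 1. When low genes were kept in the fit, edgeR's adjusted p was 0.191 for Ms4a2 and 0.885 for Fcer1a. In the GENCODE annotation no other gene shares exon bases with any of the 8 members.

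Hdc encodes histidine decarboxylase, the enzyme that makes histamine (chromosome 2, 126593667 to 126619299). It had 1.13, 1.51 and 0.503 CPM in CON mice, against 0.553, 0.852 and 1.6 CPM in T + E2 mice. Both groups spread about 3-fold and covered the same range. The log2 fold change was -0.06 with a standard error of 0.51 (edgeR adjusted p = 0.951), and a decrease of the size seen for Kit lies within 2 standard errors of this value.

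Per length, the order of the members differed between the groups at the top. FPKM values, which divide counts by gene length and depth, were highest for Mcpt4 in the CON group, at 9.28 ± 1.96 (SD, n = 3), followed by Tpsb2 at 7.56 ± 1.97, Cma1 at 5.25 ± 1.17 and Cpa3 at 3.47 ± 0.916. In the T + E2 group Tpsb2 came first at 4.97 ± 1.74 FPKM, followed by Mcpt4 at 3.22 ± 1.52, Cma1 at 2.94 ± 0.504 and Cpa3 at 2.34 ± 0.772. Neighbours among these 4 proteases overlapped in both groups. Kit lay well below them, at 0.529 ± 0.0378 FPKM in CON prostates and 0.259 ± 0.0312 FPKM with T + E2, without overlap with Cpa3. The remaining order was Fcer1a, Hdc and Ms4a2 in both groups, all at a mean under 0.3 FPKM.

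The share of Mcpt4 among the proteases was compared within each library, where depth and scaling cancel. The ratio of Mcpt4 to Tpsb2 counts was 1.02, 1.27 and 1.12 in CON mice, against 0.782, 0.656 and 0.368 in T + E2 mice. All T + E2 ratios lay below all CON ratios. Mcpt4 to Cpa3 behaved alike, at 1.58, 1.96 and 1.75 against 1.02, 0.988 and 0.636. Mcpt4 to Cma1 was 1.55, 1.75 and 1.6 against 1.1, 1.48 and 0.519, with T + E2 replicate 2 close to the CON mice. On the log2 scale the mean differences were -0.98 for Tpsb2, -1.02 for Cpa3 and -0.79 for Cma1. An exact two-sided permutation test over the 6 mice gave p = 0.1 for each, the smallest p that 3 against 3 allows, and 0.333 after Benjamini-Hochberg adjustment over the 10 pairs of the 4 proteases and Kit. This comparison was added after the values had been seen.

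Of the 10 pairs, Cpa3 to Tpsb2 had the ratio that varied least over the 6 mice. It was 0.645, 0.647 and 0.64 in CON mice, against 0.764, 0.664 and 0.579 in T + E2 mice, a range of 1.32-fold over the 6. The levels of Cpa3 and Tpsb2 differed more than that between mice of one group. The ratios rested on 42 to 100 counts of Cpa3 and 55 to 155 of Tpsb2 per mouse, and their counting error was not estimated. The log2 ratio differed between groups by 0.05 (exact permutation test, p = 0.7, adjusted p = 0.7 over the 10 pairs). The ratios of Mcpt4, Cma1, Cpa3 and Tpsb2 to Kit overlapped between the groups. No ratio of any pair could pass 0.05 in this test, because 3 against 3 allows no p under 0.1.

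**Figure D2:**
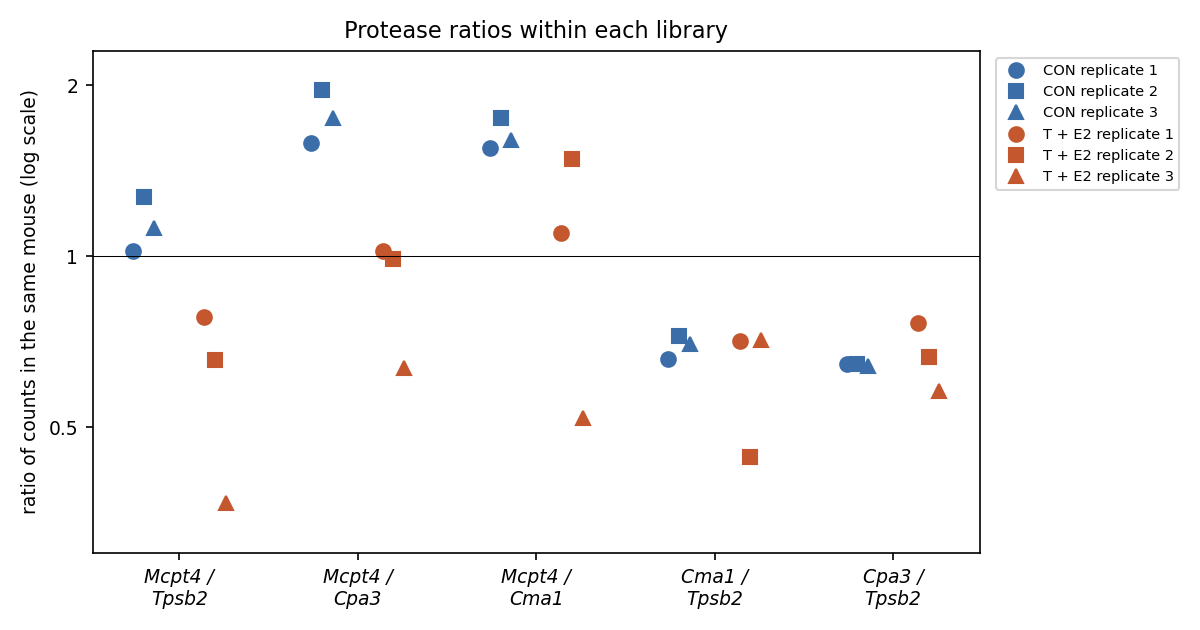
Ratio of the counts of 2 granule protease genes in the same mouse, on a log axis, for the 3 CON mice (blue) and the 3 T + E2 mice (orange). The 3 ratios with Mcpt4 on top are lower in every T + E2 mouse than in any CON mouse, and the ratio of Cpa3 to Tpsb2 stays between 0.579 and 0.764.

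Together the 8 genes took a small share of each library. They held 658, 550 and 469 counts in the CON mice, or an unscaled 44.4, 37.1 and 29.3 CPM, taken over all counts of the library. In the T + E2 mice they held 232, 415 and 293 counts, or 15.3, 25.1 and 19.8 CPM on the same unscaled basis. Exact 95% binomial intervals (counting error only) reached down to 26.7 CPM in CON replicate 3 and up to 27.6 in T + E2 replicate 2. These 2 intervals overlapped, which is no test of the difference between the 2 mice, and none was run. CON replicate 1 was the highest mouse for all 4 proteases and Kit, and T + E2 replicate 1 was the lowest for Cma1, Cpa3, Tpsb2 and Kit.

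A close relative could share reads with a member. For each other gene, the longest alignment of at least 100 bases with a member was read, and none reached 90% identity. Shorter stretches of higher identity within or beside these alignments were not looked for. The nearest to Mcpt4 was Cma2 at 85.3% over 912 bases, and Cma2, Mcpt9 and Mcpt2 had no counts in any mouse while Mcpt1, at 82.5%, had 1 count in all. Tpsab1, the other mast cell tryptase, was 76.1% identical to Tpsb2 over 830 bases. It had 6, 6 and 5 counts in CON mice, against 0, 8 and 2 in T + E2 mice, and was not tested. The chymases Mcpt1 and Mcpt2 mark mucosal mast cells, and neither exceeded 1 count in a mouse.

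A list of 31 other mast cell genes was read beside the members, of which 29 were in the table and 18 could be tested. Among these 18, 1 was lower and 3 were higher with an adjusted p under 0.05, against 9.25% and 10.4% of all tested genes, and 1 was a DEG. Their median log2 fold change was 0.17. Of the 29, 7 had at most 3 counts in every mouse, including Ctsg, which encodes cathepsin G, and the transcription factor gene Gata1. Gata2, a transcription factor of mast cells, fell from 381.8 ± 36 to 141.5 ± 29.1 CPM (mean ± SD of 3 mice), or by 1.43 on the log2 scale (edgeR adjusted p = 0.0007). Per length, Gata2 stood at 45.4 ± 3.79 FPKM in CON prostates against 9.28 FPKM for Mcpt4, and prostate epithelium is known to express it. The cells that held the Gata2 transcripts were not identified.

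The 3 that rose were Ltc4s, Cd63 and Slc45a3. Ltc4s, the enzyme that makes leukotriene C4, rose from 2.64 ± 0.105 to 4.98 ± 0.311 CPM (mean ± SD of 3 mice), or by 0.92 on the log2 scale (edgeR adjusted p = 0.0123). Cd63, a granule membrane protein found in many cell types, rose by 0.52 on the log2 scale, and so did Slc45a3, which prostate epithelium also expresses (edgeR adjusted p = 0.0154 and 0.00976). Slc18a2, the transporter that loads histamine and other monoamines into granules, had 6.03, 6.77 and 5.72 CPM in CON mice, against 1.8, 6.03 and 3.47 CPM in T + E2 mice. T + E2 replicate 2 was again the mouse within the CON range, and Slc18a2 did not pass (log2 fold change -0.70, edgeR adjusted p = 0.227). Of the receptors of connective tissue mast cells, Mrgprb2 had 9, 7 and 2 counts against 0, 5 and 1 and could not be tested, and Mrgprb1 had a log2 fold change of -0.20 (edgeR adjusted p = 0.839).

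**Figure D3:**
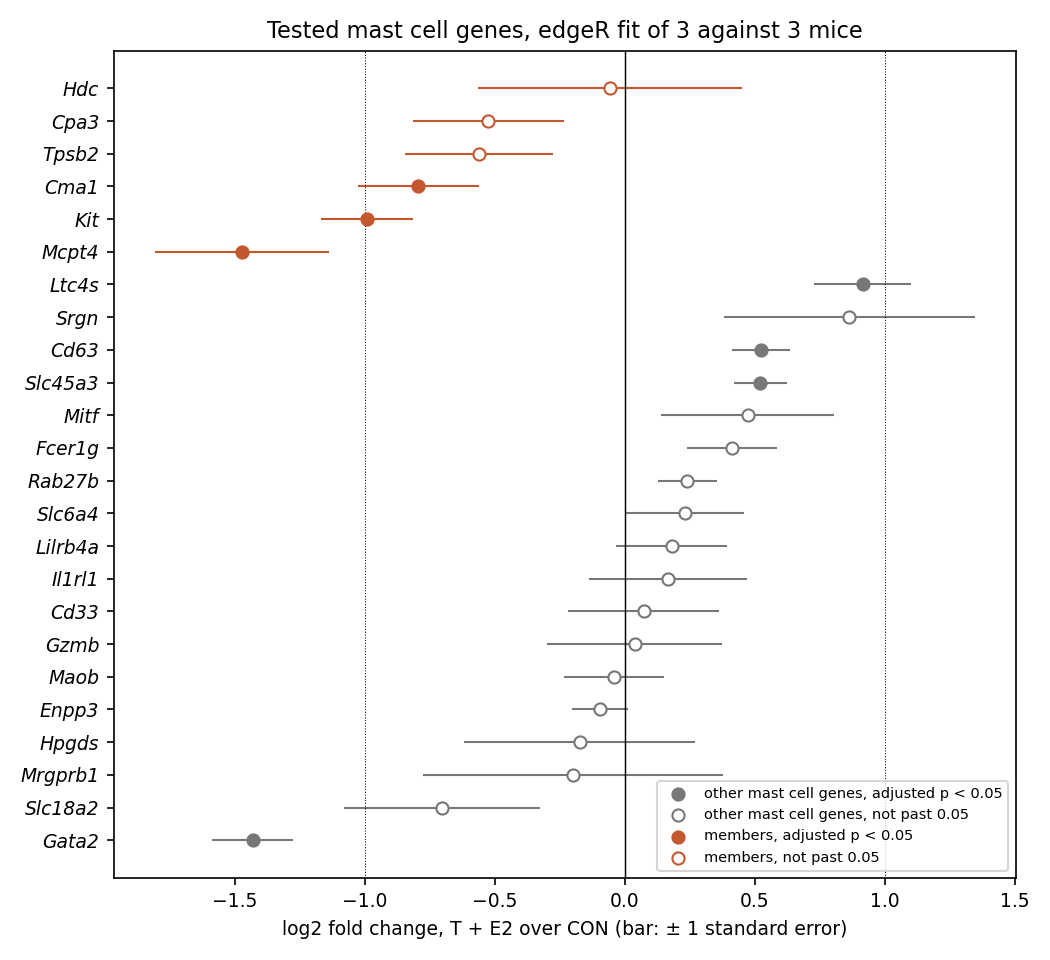
Log2 fold change of T + E2 over CON with 1 standard error for the 6 tested members (orange) and the 18 tested other mast cell genes (grey), with filled points for an adjusted p under 0.05 and dotted lines at 1 and -1. Mcpt4 and Gata2 lie beyond -1, Kit lies at -0.99, and Ltc4s is the highest of the other mast cell genes at 0.92.

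Of 17 growth factor and cytokine genes, 9 were tested, 2 were higher with an adjusted p under 0.05 and none was lower, against 10.4% and 9.25% of all tested genes, a share that 9 genes are too few to be set apart from. Kitl, which encodes the ligand of Kit, had 41.1 ± 2.2 CPM in CON prostates and 51 ± 4.78 CPM with T + E2 (mean ± SD of 3 mice), a difference of 0.31 on the log2 scale that missed the threshold (edgeR adjusted p = 0.0619). Il33, an epithelial alarm cytokine that acts on mast cells, rose from 34 ± 7.63 to 62.7 ± 6.08 CPM, or by 0.88 on the log2 scale (edgeR adjusted p = 0.0077). Its receptor gene Il1rl1 had a log2 fold change of 0.17 (edgeR adjusted p = 0.738). Il4ra, a receptor for interleukins 4 and 13, rose by 0.86 (edgeR adjusted p = 0.00487). The cytokine genes Il3, Il9 and Il13 had no counts in any mouse.

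The signalling chain below the IgE receptor held 23 genes, all of them tested and used by other leukocytes too. Of these, 2 were lower and 2 were higher with an adjusted p under 0.05, close to the 9.25% and 10.4% of all tested genes, and the median log2 fold change was 0.25. Lcp2, the adaptor SLP-76, fell by 0.83 on the log2 scale and Orai1, the pore of the store-operated calcium channel, by 0.54 (edgeR adjusted p = 0.0412 and 0.0446). Syk, a kinase of the chain, rose by 0.66 and the adaptor Gab2 by 0.47 (edgeR adjusted p = 0.026 and 0.032). Fcer1g, the gamma chain that the IgE receptor shares with other Fc receptors, had 8.13 ± 1.04 CPM against 10.8 ± 1.72 CPM (SD, n = 3 per group), with an edgeR adjusted p of 0.132.

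Histamine handling could be tested for 2 of 7 genes, and neither passed. Hnmt, which methylates histamine within cells, had 4.36 ± 0.63 CPM in CON prostates and 6.81 ± 0.917 CPM with T + E2 (mean ± SD of 3 mice, log2 fold change 0.64, edgeR adjusted p = 0.0537). Aoc1, which encodes the secreted diamine oxidase that breaks down histamine, had 0 counts in all 3 CON mice, against 11, 11 and 10 with T + E2. It did not pass the filter on low counts and was picked out after its values were seen. Against a limit of 3 counts per library, the T + E2 level of Aoc1 was at least 3.59-fold higher. Its adjusted p was 0.00427 when edgeR was run with no filter and 0.00128 with DESeq2, and 0.0814 with limma on log2(FPKM + 1). The 4 histamine receptor genes Hrh1, Hrh2, Hrh3 and Hrh4 had at most 14 counts in any mouse.

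In the lists for granule contents and release, 3 of 23 tested genes were higher and 2 were lower, close to the shares over all tested genes (10.4% and 9.25%). For heparin and serglycin, 2 of 10 tested genes were higher and none lower, namely Ext1 with a log2 fold change of 0.53 and Hs2st1 with 0.48 (edgeR adjusted p = 0.00447 and 0.0189). Srgn itself, the serglycin gene, varied from 3.22 to 9.34 CPM among the CON mice and from 5.2 to 18.1 CPM among the T + E2 mice, and did not pass (edgeR adjusted p = 0.245). Of 13 genes of the secretion machinery, Rab27a rose by 1.05, whereas Stx3 fell by 0.61 and Vamp2 by 0.38 on the log2 scale (edgeR adjusted p = 0.0145, 0.00317 and 0.0497).

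Of 10 tested genes for lipid mediators and their receptors, 3 were higher and 1 was lower with an adjusted p under 0.05, with 1 DEG in each direction. Across all tested genes 10.4% were higher and 9.25% were lower with an adjusted p under 0.05. DEGs with higher expression were 4.27% of all tested genes, and those with lower expression 3.38%. Ptgs1, the constitutive cyclooxygenase, fell from 73.2 ± 9.5 to 24.4 ± 1.2 CPM (mean ± SD of 3 mice), or by 1.59 on the log2 scale (edgeR adjusted p = 9.8e-05). Besides Ltc4s, the phospholipase Pla2g4a rose by 0.89 and the prostaglandin D2 receptor Ptgdr by 3.29 (edgeR adjusted p = 0.025 and 0.0362). For Ptgdr, T + E2 replicate 2 alone held 201 counts, the other two T + E2 mice 15 and 40, and the CON mice 6 to 10.

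The groups differed in other cells as well, and the part of these in the results on mast cell genes was not tested. Basophils share Fcer1a, Ms4a2, Hdc and Cpa3 with mast cells. The basophil gene Mcpt8 had at most 2 counts, and Prss34 and Cd200r3 had at most 10 and 7. The list of 4 basophil markers summed to 1.38 to 3.38 CPM in the CON mice and 0.761 to 2.25 CPM in the T + E2 mice. Most of each sum came from the remaining marker, Itga2, at 2.45, 1.18 and 2.01 CPM in CON mice. In T + E2 mice Itga2 had 0.623, 1.64 and 1.47 CPM, so these sums say little about basophils. The 8 members summed to 29.5 to 43.6 CPM against 16.1 to 25.3 CPM. General leukocyte markers did not go the same way, with sums of 41.1 to 61.9 CPM in the CON mice and 53.7 to 75 CPM in the T + E2 mice, and 1 of 4 (Cd53) was called, in the higher direction. Macrophage markers were higher, at 212.2 to 278.5 against 322.4 to 500.7 CPM, with 5 of 8 called higher and none lower. By the same adjusted p under 0.05, 10.4% of all tested genes were called higher and 9.25% lower.

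Stromal lists were mixed. The calls below stand beside 9.25% of all tested genes called lower and 10.4% called higher, and each list is short. Fibroblast markers summed to 1742 to 1840 CPM in the CON mice and 1783 to 2122 CPM in the T + E2 mice, with 0 of 7 called by edgeR. Smooth muscle markers were lower, at 4085 to 5074 against 3580 to 3921 CPM, with 2 of 6 called lower (Acta2 and Des). Nerve and glia markers were lower too, at 127.9 to 165.2 against 87.7 to 115.9 CPM, with 2 of 5 called, among them Sox10 (log2 fold change -1.66). Endothelial markers overlapped, at 80.8 to 111.5 against 101.2 to 129.3 CPM, with 0 of 5 called. Epithelial lists moved more. Prostate epithelium markers summed to 37280 to 50880 CPM against 13230 to 15920 CPM, lower in every T + E2 mouse mainly through the secretory genes Pbsn and Tgm4, while 3 of the 8 were called lower and 3 higher. Urothelium markers were higher in every T + E2 mouse, at 421.8 to 642.1 against 1374 to 1700 CPM, with 3 of 3 tested called higher. Of the cell type lists, sums lower in every T + E2 mouse were found for nerve, smooth muscle and prostate epithelium beside the mast cell members. The other mast cell genes also summed lower in every T + E2 mouse, at 768.9 to 839.2 against 670 to 721.3 CPM. In that sum Gata2 alone held a mean of 381.8 CPM in CON mice and 141.5 CPM in T + E2 mice. Among single tested genes, 20.7% were lower without overlap.

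**Figure D4:**
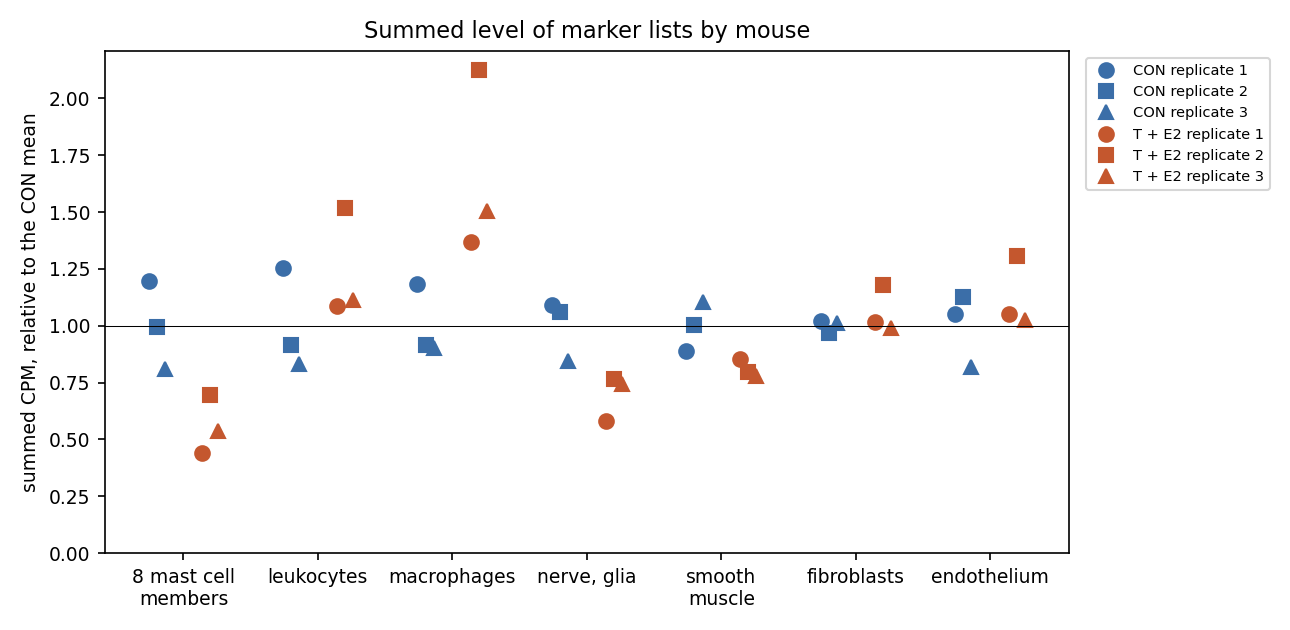
Summed CPM of the 8 mast cell genes and of 6 marker lists in each mouse, divided by the mean of the CON group. The mast cell genes, nerve and smooth muscle lie lower in every T + E2 mouse than in any CON mouse, macrophage markers lie higher, and leukocyte, fibroblast and endothelial markers overlap.

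The 8 genes outside the members whose profile over the 6 mice came closest to the mean of the 4 proteases included 9330182L06Rik, Rhof, Cplx2, Gnal, 1500004A13Rik, Xaf1 and Smpd5. Likeness was the root mean square difference between log2 CPM profiles, each centred on its own mean, and ran from 0.067 to 0.143 log2 units for these 8. Of the members, Cpa3 lay at 0.166, Tpsb2 at 0.176, Cma1 at 0.219, Kit at 0.28, Mcpt4 at 0.414 and Hdc at 0.678 from that mean, which the proteases themselves enter. Genes outside the members that lay nearer numbered 15 for Cpa3, 19 for Tpsb2, 68 for Cma1 and 229 for Kit. They numbered 1938 for Mcpt4 and 11951 for Hdc. Cplx2, which encodes complexin 2, a regulator of vesicle fusion, had 31.1, 24.8 and 22.8 CPM in CON mice, against 11.1, 18.4 and 13.1 CPM in T + E2 mice. Cplx2 fell by 0.88 on the log2 scale (standard error 0.20). A fall was built into its choice, because the protease profile it was matched to is itself lower in the T + E2 group. With 6 mice and 15574 genes compared, close profiles arise among unrelated genes.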

How the data were processed

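RNA from the prostates of 6 mice (3 CON, 3 T + E2) was sequenced, and groups and replicate numbers came from the sample titles. The authors deposited 1 table of 34745 genes with whole-number counts per gene, without normalization, and FPKM values, which divide those counts by gene length and depth. The submitters' processing notes name Bowtie2, TopHat and HTSeq. Versions, annotation and strand setting are not given in the sources used here. Of 34267 identifiers found in release M21 of GENCODE (GRCm38), 80.8% had identical coordinates, and positions of genes are those of the table.

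Counts were filtered with filterByExpr (minimum count 10, minimum total 15), leaving 15580 genes, scaled by TMM and tested across all of these genes with edgeR 4.0.16 (glmQLFit, glmQLFTest) in R 4.3.3, with Benjamini-Hochberg adjustment. The study's methods name DESeq2, run here (1.42.0) as an alternative, beside limma 3.58.1 on log2(FPKM + 0.1) and log2(FPKM + 1), other scalings and filters, a replicate block and each mouse left out. Standard errors are the log2 fold change over the root of F. Transcripts were compared with BLAST+ 2.17.0, and exact tests used scipy 1.17.1. On simulated counts for this comparison, 193 changed genes were tested. Of these, 83 with a change of 1.5 log2 units and 92 with a change of 2 were called. False calls numbered 5, among all 15380 genes tested there. Changes under 1.5 log2 units, as found for every tested member, were not simulated. Counts of mice within a group differed by 16.7 to 36.4 chi-square per degree of freedom, so each was kept as a replicate. With 3 mice against 3 an exact permutation p cannot go below 0.1.

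Named genes are the 8 members, up to 4 genes per list with the largest change among those with an adjusted p under 0.05, list genes at no more than 3 counts in every mouse where a list serves as a marker check, the 8 nearest profiles, and paralogs of at least 90% identity over 100 bases. The other genes named without a call were chosen after their values were seen. Some genes that this rule names are not reported here. Members and lists were chosen with earlier results of these data known.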

Additional observations from a re-analysis of the deposited data

How the results depend on the processing

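Directions of Mcpt4, Cma1, Cpa3, Tpsb2 and Kit held in every setting in which they were tested and in all fits with 1 mouse left out. Kit was not tested under the filter of FPKM of at least 1 in at least 3 mice, and its log2 difference was -0.28 with limma on log2(FPKM + 1). The number of DEGs was 1191, and 561 with limma on log2(FPKM + 1) and 3061 with no threshold on the fold change. It ran from 972 to 1152 with 1 mouse left out. The number of the 8 genes that were DEGs was 1, and 2 (Mcpt4 and Kit) with library totals or upper-quartile factors, 3 with no threshold on the fold change, and 0 to 2 with 1 mouse left out (0 without CON replicate 1 or T + E2 replicate 1, 2 without CON replicate 2, CON replicate 3 or T + E2 replicate 3). The number with an adjusted p under 0.05 was 3, and 1 to 3 with 1 mouse left out (Kit alone without CON replicate 1 or T + E2 replicate 1) and 1 (Mcpt4) without replicate 2 of both groups. It was 2 (Kit and Mcpt4) with DESeq2, with no filter on low counts and with the replicate block. Under the filter of FPKM of at least 1 in at least 3 mice, Cma1 and Mcpt4 passed and Kit was not tested. Of the other mast cell genes 1 was a DEG, and 4 passed with no threshold on the fold change. The log2 fold change of Hdc ran from -0.56 to 0.30 with 1 mouse left out, at 0.001, 0.30, 0.23 and 0.05 without CON replicate 1, CON replicate 2, T + E2 replicate 1 and T + E2 replicate 2, and was 0.41 without replicate 2 of both groups. The cause was not tested.

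The replicate number names different mice. Deviations of same-numbered mice from their group means correlated at -0.052, 0.028 and 0.046 over 15580 genes, so the numbers were not taken to pair the mice. With the replicate block, the log2 fold change of Mcpt4 was -1.55, that of Kit -0.99 and that of Cma1 -0.78, and 1 of the 8 was a DEG, among 1013 DEGs in all. The block took the edgeR adjusted p of Cma1 to 0.112 and changed no other call among the 8. Depth limits Fcer1a, Ms4a2 and Hdc: a limit of 3 counts was worth 0.183 to 0.207 CPM.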
